A study of Mus musculus with 3 samples.

Results

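The genes described here encode the machinery that cuts nascent RNA and degrades it in the nucleus: the Integrator complex, the cleavage and polyadenylation factors, and the RNA exosome with the exonuclease Xrn2. They were chosen by gene symbol, from the names Ints, Cpsf, Cstf and Exosc with a number (the copies Cpsf4l and Cstf2t included). Added by name were Pcf11, Clp1, Nudt21, Xrn2, Sympk, Wdr33, Fip1l1, Papola, Pabpn1 and Dis3. The rule uses symbols and no measured value, but it was set with earlier results of these data known. The rule found 45 genes of 55536 annotated genes, which fall into 14 Integrator genes, 19 cleavage and polyadenylation genes and 12 exosome and exonuclease genes. RNA bound to chromatin, the fraction rich in transcripts still attached to their genes, was sequenced after removal of ribosomal RNA from bone-marrow-derived macrophages of C57BL/6J mice. All cells had received lipid A, a bacterial membrane lipid sensed by TLR4, at 100 ng/ml for 20 min. The 3 libraries form 1 group, labelled as biological replicates 1, 2 and 3, and were made from 1000, 250 and 500 ng of RNA in that order. Age and sex were not collected, the labels name 1 donor entry and 3 separate biosamples, and they do not say whether separate animals were used, so errors and p-values measure the spread between these libraries, which may be technical. No untreated sample was analysed here, so the values are levels and say nothing of induction.

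Cleavage and polyadenylation end most messenger RNAs. CPSF recognises the poly(A) signal and cuts the RNA through its subunit Cpsf3, CstF binds the downstream part of the site, cleavage factors I and II help to choose and process it, and poly(A) polymerase adds the tail. Integrator carries a related endonuclease, Ints11, processes small nuclear RNAs and ends transcription early at many genes, with a phosphatase module that acts on the polymerase. Xrn2 degrades the RNA left on the polymerase after cleavage from its 5′ end, and the exosome degrades or trims RNA from the 3′ end. Macrophages depend on this machinery as other cells do, and unspliced transcripts are enriched in the chromatin fraction.

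The gene tables held 16317439, 16245280 and 12439931 expected counts (read counts shared out among genes by a statistical model) in replicates 1, 2 and 3, and the 45 genes held 35183, 31202 and 29625 of them. A count of 0 allows up to 3 counts, which covers counting error only. The cells matched their label: all 10 macrophage markers reached at least 1 TPM (transcript abundance scaled for length and library total) in every library, with summed levels of 711 to 1200 TPM. None of the 24 markers of 7 other cell types did, and their summed level was 2.22 to 3.27 TPM, with the T cell genes Cd3e and Cd3d, the neutrophil gene Ly6g and the mast cell genes Mcpt4 and Fcer1a at 0 in every library. Protein-coding genes took 15.8%, 18.05% and 24.7% of all TPM in replicates 1, 2 and 3, and TPM of most genes was highest in replicate 3. This held for 39 of the 42 genes of the cleavage, Integrator and exosome machinery that passed the filter on low counts (92.9%). Over 10870 protein-coding genes the share was 87.7%. When TPM was rescaled over protein-coding genes, replicate 3 was the highest for 20 of the 42 genes that passed the filter on low counts (47.6%), against 46.8% of 10870 protein-coding genes.

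Of the 45 genes, 40 had 1 TPM or more in all 3 libraries, and 40.6% of the 22028 protein-coding genes did. The 5 others were Ints5, Cpsf4l, Exosc3, Exosc4 and Exosc6. The median level over the genes was 19.4 ± 4.25 TPM for cleavage and polyadenylation, 10.4 ± 2.25 TPM for Integrator and 5.07 ± 1.83 TPM for exosome and exonucleases (SD over library medians, n = 3 each). For all 45 genes it was 9.18 ± 2.07 TPM, beside 9.02 ± 2.60 TPM for the 8942 protein-coding genes at or above 1 TPM in every library and 0.41 ± 0.157 TPM for all protein-coding genes (SD, n = 3 each). The cleavage and polyadenylation median was above the Integrator median in 3 of 3 libraries, and the Integrator median was above the exosome median in 3 of 3. Mean levels ran from 0 TPM for Exosc6 to 68.3 TPM for Pabpn1, and 10 genes had a mean above 30 TPM, of which 8 belong to cleavage and polyadenylation, 1 is Ints6 and 1 is Xrn2. In bulk samples, fewer cells of a type and less RNA per cell cannot be told apart.

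**Figure D1:**
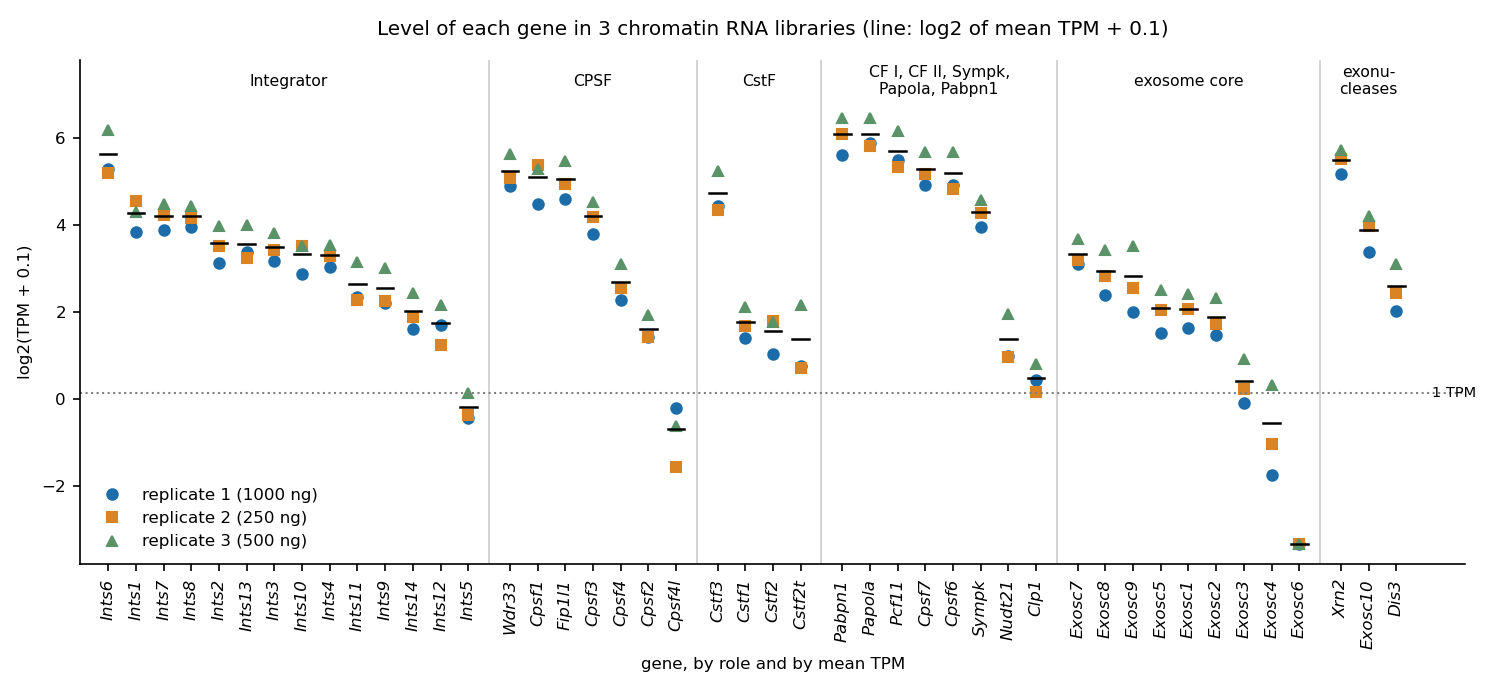
Level of each of the 45 genes in the 3 libraries, as log2(TPM + 0.1) on the y axis, with genes on the x axis grouped by role and ordered by mean TPM; symbols mark the library and its starting RNA, and the short line marks the mean. The libraries of 1 gene lie close together next to the range between genes, and Exosc6 is listed at 0 TPM.

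Among Integrator genes, Ints6 was the highest over all isoforms. Ints6, a subunit that helps to recruit protein phosphatase PP2A to the complex, had 38.7, 36.4 and 72.0 TPM in replicates 1, 2 and 3. Ints1, the largest subunit and part of the backbone, had 14.3, 23.5 and 19.5 TPM, and Ints7, another backbone subunit, had 14.6, 18.6 and 22.3 TPM in the same order. Ints6 was above every other Integrator gene in each library, and the ranges of Ints1 and Ints7 overlapped. The next group, from Ints8 at 18.2 to Ints4 at 9.79 mean TPM, also holds Ints2, Ints13, Ints3 and Ints10. Ints11, the endonuclease, had 4.94, 4.73 and 8.80 TPM, and its partner Ints9, which has the same fold and does not cut, had 4.5, 4.65 and 7.99 TPM in replicates 1, 2 and 3. The cutting subunit and its partner lay close together, with lower means than 9 other Integrator genes. Ints14 averaged 3.96 ± 1.23 TPM (SD, n = 3), and Ints12, a subunit with a PHD finger, had 3.14, 2.28 and 4.37 TPM in replicates 1, 2 and 3. Ints5 was the lowest, at 0.64, 0.68 and 1.00 TPM, from 55, 44 and 42 counts. It has 1 annotated isoform and overlaps the gene Gm49416 on the same strand, so reads may be shared between them.

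Most of the Ints6 TPM was in short noncoding isoforms. The gene spans 84.8 kb (GRCm38 chr14:62676330-62761169, minus strand). Ints6-204, an isoform typed as retained intron, ends 3.56 kb from the start of the gene, 1588 bases into intron 3. It took 29.2%, 26.7% and 36.1% of the Ints6 TPM in replicates 1, 2 and 3, a mean of 30.7 ± 4.84% (SD, n = 3), against 11.4 ± 0.69% (SD, n = 3) for Ints6-202 with 18 exons and 3.17 ± 2.49% for Ints6-201 with 19 exons, the long coding isoforms. In the second set of transcript tables its share was 17.2 ± 2.16%, against 4.93 ± 0.57% for Ints6-202 and 10.6 ± 2.68% for Ints6-201 (SD, n = 3 each). The short isoform was above each long isoform taken singly in 3 of 3 libraries in both quantifications. It was not above the pair together in replicate 2 of the second tables, where it held 16.1% and they held 4.72% and 13.6%. The last 30 bases of each isoform are shown because they are where a poly(A) signal would stand. Each sequence runs 5′ to 3′ on the transcript strand, with AATAAA or its variant ATTAAA in capitals where a search of that strand found it.
Ints6-204: tgaaactagcATTAAAataatttaagaagc
Ints6-202: gcacacacAATAAAtatgtttttaaaccaa
The Ints6-204 end lies at chr14:62757613-62757642 and the Ints6-202 end at chr14:62685804-62685833, both in GRCm38 on the minus strand. The variant starts 20 bases before the end of Ints6-204, and the canonical hexamer starts 22 bases before the end of Ints6-202. Of 141767 annotated transcripts, 23.3% hold AATAAA and 7.10% hold ATTAAA in their last 30 bases, and 20.2% and 10.4% of the 307 transcripts of the 45 genes do. A match is a description of the letters and does not show that the site was used. The tables cannot tell reads of an unspliced full-length transcript from reads of a transcript that ends in the intron.

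In CPSF, Wdr33 and Fip1l1, which help to bind the poly(A) signal and the polymerase, and Cpsf1, the large scaffold subunit, formed the top group. Wdr33 had 29.4, 33.8 and 49.3 TPM in replicates 1, 2 and 3. Cpsf1 had 22.3, 41.7 and 38.6 TPM, and Fip1l1 had 24.0, 30.8 and 44.0 TPM. The ranges of these 3 genes overlapped, and Cpsf1 was highest in replicate 2 where the others were highest in replicate 3. Cpsf3, the endonuclease, had 13.8, 18.1 and 22.8 TPM, lower than these 3 genes in each library. Over protein-coding isoforms alone the order differed, with means of 28.4 TPM for Wdr33, 11.2 for Fip1l1, 10.8 for Cpsf3 and 9.75 for Cpsf1. Of the Wdr33 coding level, 11.9 TPM was in Wdr33-205, which has 6 exons and ends 30.3% of the way along the gene. The full-length Wdr33-201, with 22 exons, had 10.7 TPM. Over all isoforms, Cpsf2, the partner of Cpsf3 that does not cut, had 2.59, 2.58 and 3.73 TPM in replicates 1, 2 and 3. Cpsf4, a zinc finger subunit that binds the signal, had 4.70, 5.74 and 8.54 TPM in the same order. Within the same complex, mean levels of the essential subunits thus ran from 2.97 TPM for Cpsf2 to 37.5 TPM for Wdr33. Cpsf4l, a copy of Cpsf4, was at 0.76, 0.24 and 0.55 TPM in replicates 1, 2 and 3, from 19, 4 and 7 counts. It was the only 1 of the 45 genes whose mean TPM differed by more than 4 times between the 2 quantifications, at 2.23, 1.58 and 3.96 TPM in the second tables, a mean 5.01 times as high. Reads of Cpsf4 and Cpsf4l may be shared between the copies, so the level of Cpsf4l is uncertain.

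In CstF, Cstf3 stood apart from the other subunits. Cstf3, the scaffold of the complex, had 21.4, 20.3 and 37.9 TPM in replicates 1, 2 and 3. Cstf1, a WD-repeat subunit, had 2.55, 3.10 and 4.24 TPM. Cstf2, the RNA-binding subunit, had 1.95, 3.35 and 3.31 TPM, and Cstf2t, an intronless copy of Cstf2, had 1.58, 1.54 and 4.35 TPM. Cstf3 was above the other 3 in each library, and the ranges of those 3 overlapped. Cstf2 and Cstf2t are similar in sequence, so reads may be shared between them.

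Most of the Cstf3 TPM was in short isoforms. Cstf3 is known in mouse and human to make a short transcript by polyadenylation within an early intron, through which the factor limits its own level. In these libraries Cstf3-202 and Cstf3-206, both typed as retained intron, held 42.3%, 40.3% and 52.5% of the Cstf3 TPM in replicates 1, 2 and 3, a mean of 45.0 ± 6.52%. The full-length Cstf3-201, with 21 exons, held 20.3 ± 2.30%, and 3 short internal isoforms near the end of the gene held the rest (SD, n = 3 each). In the second tables the short pair held 31.5 ± 2.26%, and Cstf3-201 held 17.7 ± 2.10% (SD, n = 3 each). The short pair was above the full-length isoform in 3 of 3 libraries in both quantifications. As for Ints6, reads of an unspliced full-length transcript cannot be told from reads of a transcript that ends in the intron. Both short isoforms read through the end of exon 3, and they stop 2220 and 243 bases into an intron of 35102 bases. Cstf3-206 also keeps intron 2, which Cstf3-202 removes. The ends of the isoforms are shown with the hexamers in capitals, because the short isoforms carry such letters as the full-length isoform does.
Cstf3-202: gaaAATAAAgctttgttaatacgttgttgt
Cstf3-206: tgcaacaacATTAAAacagtttcaatggtg
Cstf3-201: aaaggAATAAAaggacctcaaaaacatgcc
They lie at chr2:104611377-104611406, chr2:104609400-104609429 and chr2:104665400-104665429 (GRCm38, plus strand). The hexamers start 27, 21 and 25 bases before the ends. The boundary that both short isoforms leave unspliced is shown next, with the first 6 intron bases in capitals, beside the boundary that Ints6-204 leaves unspliced, because splicing there would exclude these ends.
Cstf3 exon 3 boundary: attgaagcagagGTTAATattttatttatt
Ints6 exon 3 boundary: aactatgggcagGTAGGTtgaatactaagg
These run over chr2:104609175-104609204 on the plus strand and chr14:62759183-62759212 on the minus strand. Both isoforms hold these letters unbroken, since neither annotated transcript removes the intron. Cstf3 overlaps Tcp11l1 on the opposite strand, and the sources used here do not say whether counting used strand.

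The cleavage factors, poly(A) polymerase and the nuclear poly(A)-binding protein were the highest of the 6 role groups, with a median of 37.7 ± 11.6 TPM (SD, n = 3). Pabpn1, which binds the growing tail and sets its length, had 48.6, 68.5 and 87.8 TPM in replicates 1, 2 and 3. Papola, the canonical poly(A) polymerase, had 58.8, 56.3 and 87.4 TPM, and Pcf11, the cleavage factor II subunit that binds the polymerase, had 44.8, 40.0 and 71.8 TPM. Replicate 3 was the highest for all 3 genes, and their ranges over all isoforms overlapped. Their protein-coding isoforms alone had 61.7 ± 18.1 TPM for Pabpn1, 45.1 ± 15.6 for Pcf11 and 21.2 ± 0.25 for Papola (SD, n = 3 each). Pabpn1 overlaps the gene Gm20521 on the same strand, so its level depends on how reads were divided between them. Cpsf7 had 30.3, 35.6 and 51.3 TPM and Cpsf6 had 29.97, 28.2 and 50.9 TPM in replicates 1, 2 and 3, and these alternative large subunits of cleavage factor I overlapped. Nudt21, the small subunit that binds the RNA in the same factor, averaged 2.51 ± 1.12 TPM (SD, n = 3), below both partners in each library. Sympk, a scaffold that joins CPSF and CstF, averaged 19.4 ± 4.25 TPM (SD, n = 3). Clp1, the other cleavage factor II subunit and an RNA kinase, was the lowest of the group at 1.25, 1.01 and 1.64 TPM, from 64, 37 and 36 counts.

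Pcf11, like Cstf3, is known in mouse and human to end some of its transcripts early, in intron 1. Pcf11-205, which has 1 exon and stops 1.75 kb from the gene start, 1245 bases into an intron of 3563 bases, held 21.4%, 16.1% and 23.7% of the Pcf11 TPM in replicates 1, 2 and 3. The full-length Pcf11-201 held 26.2%, 29.6% and 26.0%, more than Pcf11-205 in each library. The second tables gave 18.2 ± 3.58% for Pcf11-205 and 24.2 ± 0.25% for Pcf11-201 (SD, n = 3 each). Pcf11-203, which starts inside the gene and ends near its end, held the largest share, 38.6 ± 2.27% (SD, n = 3). The annotation types Pcf11-205 as protein-coding, so it is not part of the noncoding share given further on. Its reads, too, cannot be told from those of an unspliced full-length transcript. The ends of these isoforms are shown for the same reason as those of Cstf3.
Pcf11-205: aaaatttgtgAATAAAacatataaaatatg
Pcf11-201: ATTAAAacttgtgattttttttccgtggga
Pcf11-203: actgtaaattataAATAAAaaatatttttg
They lie at chr7:92668184-92668213, chr7:92643543-92643572 and chr7:92644260-92644289 (GRCm38, minus strand). The canonical hexamer starts 20 bases before the end of Pcf11-205 and 17 bases before the end of Pcf11-203, and the variant opens the window of Pcf11-201. In Pabpn1, the isoform Pabpn1-202 keeps intron 6 and is typed as protein-coding. It held 35.2%, 30.2% and 37.4% of the Pabpn1 TPM in replicates 1, 2 and 3, against 15.7%, 24.9% and 28.4% for Pabpn1-201, in which that intron is removed. The order of these isoforms turned in the second tables, where Pabpn1-202 held 23.7 ± 2.55% and Pabpn1-201 45.9 ± 4.41% (SD, n = 3 each).

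**Figure D2:**
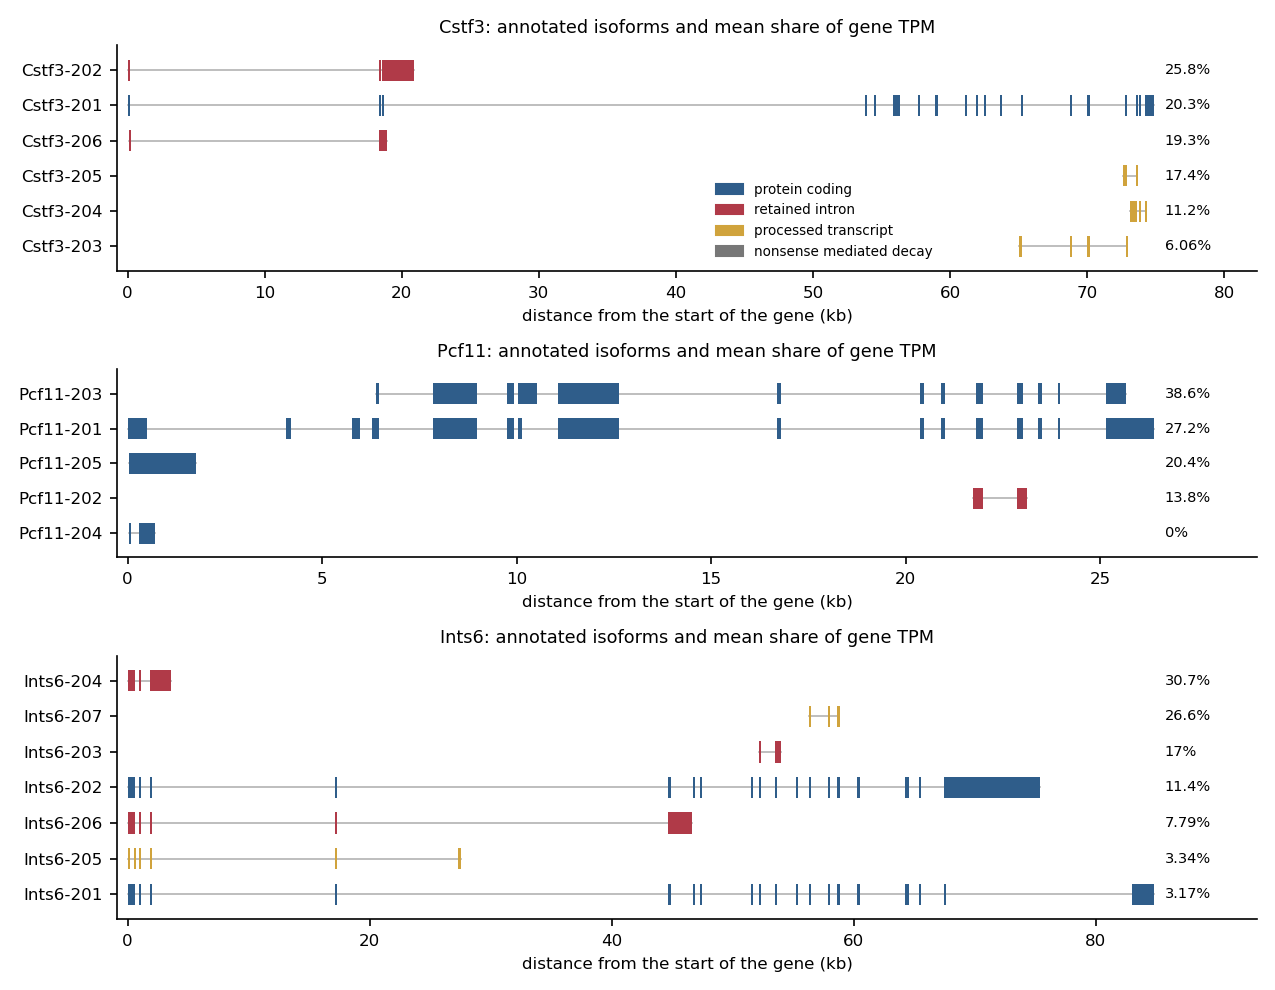
Annotated isoforms of Cstf3, Pcf11 and Ints6, drawn to scale by distance from the gene start in kb and coloured by transcript type, with exons as boxes and the mean share of the gene's TPM over 3 libraries at the right. The isoforms Cstf3-202, Cstf3-206, Pcf11-205 and Ints6-204 end early in their genes and hold 25.8%, 19.3%, 20.4% and 30.7% of TPM. Reads of unspliced full-length transcripts and of transcripts that end in the intron cannot be told apart.

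The core of the exosome had a median of 4.01 ± 1.22 TPM over its 9 genes (SD, n = 3), and of the 6 role groups CstF alone had a lower one, at 3.26 ± 1.02 TPM (SD, n = 3). The core is a ring, made of Exosc4 to Exosc9, under a cap made of Exosc1 to Exosc3. In the ring, Exosc7 had 8.42, 8.99 and 12.7 TPM in replicates 1, 2 and 3. Exosc8 had 5.10, 7.01 and 10.7 TPM, and Exosc9 had 3.91, 5.76 and 11.3 TPM. Exosc7 was the highest in each library over all isoforms, and its range overlapped those of Exosc8 and Exosc9. Over protein-coding isoforms alone the order differed. There Exosc9 had the highest mean of the core at 4.20 TPM, before Exosc1 at 2.03, Exosc7 at 1.68 and Exosc8 at 1.35 TPM. Over all isoforms, Exosc5 averaged 4.13 ± 1.40 TPM, and the cap genes Exosc1 and Exosc2 averaged 4.11 ± 1.10 and 3.58 ± 1.17 TPM (SD, n = 3 each). Exosc3, the third cap gene, had 0.84, 1.07 and 1.79 TPM from 16, 15 and 16 counts. The authors' credibility interval for it, of unstated level, ran from 0.625 to 1.87 TPM in replicate 1 and from 1.36 to 4.02 TPM in replicate 3. Exosc4 had 0.20, 0.39 and 1.15 TPM in replicates 1, 2 and 3, with deposited intervals of 0.131 to 1.24, 0.270 to 3.08 and 0.807 to 4.05 TPM. At this depth its level cannot be placed on either side of 1 TPM in any library.

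Exosc6, a ring subunit, was listed at 0 in every library and in both quantifications. Its single annotated transcript has 1 exon (GRCm38 chr8:111056339-111057664, plus strand), and all of its sequence is contained in the longest isoform of Aars, the alanyl-tRNA synthetase gene, on the same strand. That isoform, Aars-201, had 2.24, 3.80 and 3.68 TPM in replicates 1, 2 and 3. Reads from Exosc6 and from this isoform cannot be told apart, so the value of 0 does not show that Exosc6 RNA was missing. For that reason the median of the core is that of 9 listed values, 1 of which is not a measured level.

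The exonucleases had a median of 14.7 ± 4.13 TPM (SD, n = 3), above that of the core, although Dis3 lay within the range of the core genes. Xrn2 had 35.8, 45.7 and 52.3 TPM in replicates 1, 2 and 3. Exosc10, the exonuclease of the nuclear exosome, had 10.2, 15.6 and 18.3 TPM, and Dis3, which is both an exonuclease and an endonuclease, had 3.93, 5.29 and 8.54 TPM. In each library Xrn2 was above Exosc10 and Exosc10 was above Dis3. Of the Xrn2 TPM, 65.8 ± 2.15% was in the full-length Xrn2-201 with 30 exons (SD, n = 3). Dis3 overlaps Pibf1 on the opposite strand, and 25 of the 45 genes overlap an annotated gene on the opposite strand in some part.

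The level over all isoforms and the level over coding isoforms differed widely in some genes. TPM is scaled by transcript length, so short noncoding isoforms add to the TPM of a gene out of proportion to their reads. In Ints6, Ints7, Cstf3, Dis3, Exosc7 and Exosc8, the coding isoforms together held less than 25% of the mean TPM of the gene. Coding isoforms of Ints6 had 7.07 ± 2.61 TPM of 49.0 ± 19.9 TPM in all, those of Cstf3 had 5.28 ± 1.56 of 26.5 ± 9.85 TPM, and those of Exosc7 had 1.68 ± 1.00 of 10.03 ± 2.32 TPM (SD, n = 3 each). In Pabpn1 they had 61.7 ± 18.1 of 68.3 ± 19.6 TPM (SD, n = 3 each). Within the 45 genes, mean TPM went with the number of annotated isoforms (Spearman's rho 0.67 over 45 genes). Genes share libraries and annotation, so this is a description, and over the 40 genes at or above 1 TPM in every library rho was 0.57, beside 0.39 over 8938 protein-coding genes at or above that level. The 4 genes with a single isoform, Ints5, Cpsf2, Cstf2t and Exosc6, had a median of 1.63 TPM, and the 8 genes with 10 or more isoforms had a median of 18.7 TPM.

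**Figure D3:**
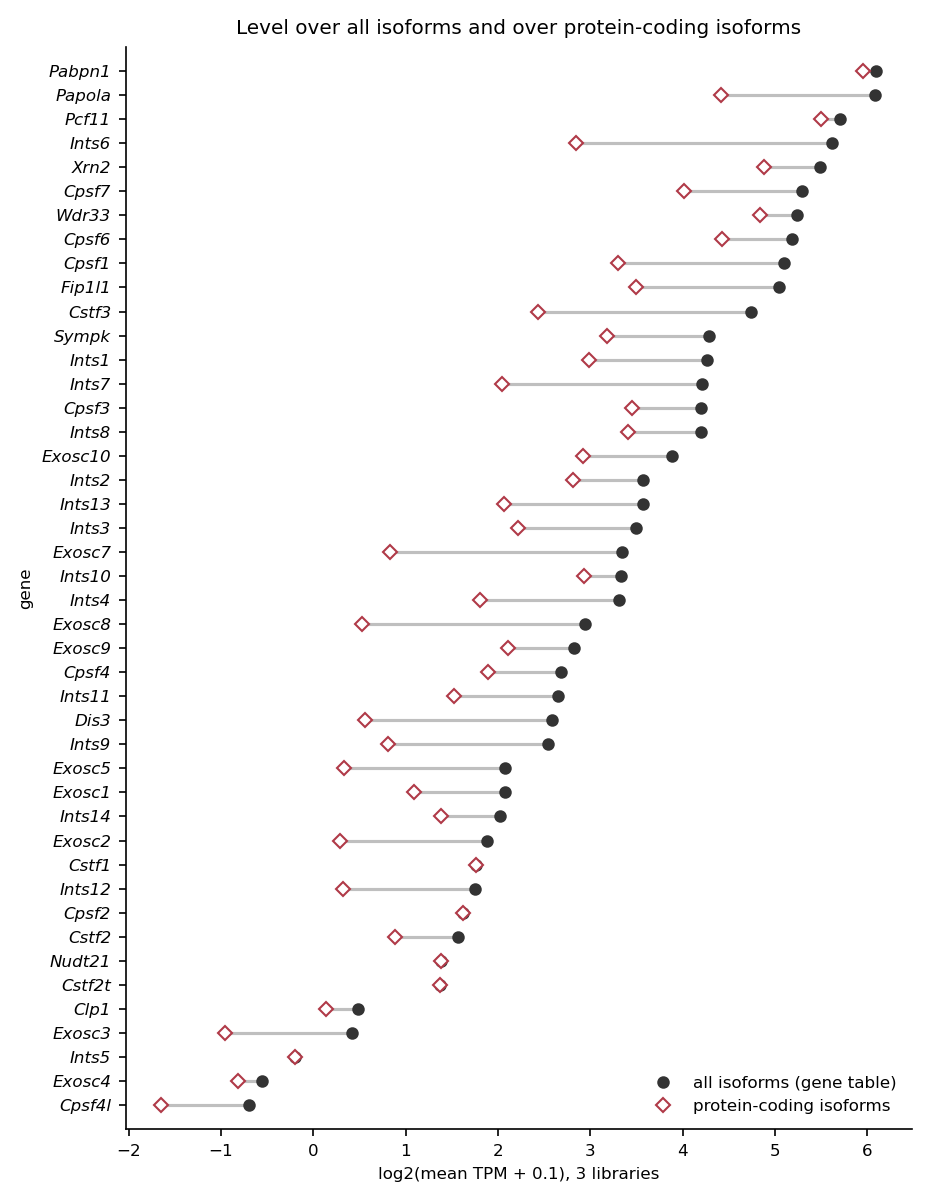
Mean level of 44 genes over 3 libraries on the x axis, as log2(mean TPM + 0.1), over all isoforms (filled circles) and over protein-coding isoforms (open diamonds), with genes on the y axis ordered by the level over all isoforms. The distance between the marks is long for Ints6, Cstf3 and Exosc7 and short for Pabpn1 and Pcf11; Exosc6, listed at 0, is not drawn.

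The noncoding share is the part of a gene's TPM in isoforms typed as retained intron or processed transcript. Its median was 49.0% over the 36 genes that have such an isoform and reached 1 TPM in every library, with 52.2%, 45.5% and 49.3% in replicates 1, 2 and 3. The median over 7454 protein-coding genes under the same conditions was 48.1%. In the second tables the order turned, with a median of 45.9% for these genes and 54.4% for all protein-coding genes. The share was above 50% in 17 of the 36 genes and in 3496 of the 7454. By family, the median was 59.2% for Integrator (n = 13 genes), 33.2% for cleavage and polyadenylation (n = 14) and 50.9% for exosome and exonucleases (n = 9). Ints6 had the highest share, at 87.1%, 82.9% and 86.1% in replicates 1, 2 and 3, followed by Exosc7 at 91.0%, 82.9% and 78.3% and Cstf3 at 80.7%, 77.1% and 81.4%. The lowest shares were those of Pabpn1 at 9.36%, 11.1% and 8.56%, Pcf11 at 15.8%, 13.3% and 12.3%, and Cpsf6 at 15.7%, 15.4% and 24.3%. The 3 highest and the 3 lowest genes did not overlap in any library. They were picked by these same shares, so that gap is no separate result. In Exosc7 the main isoform was Exosc7-202, which runs 449 bases into intron 3 and held 40.4 ± 1.88% of TPM (SD, n = 3). Neither AATAAA nor ATTAAA stands in its last 30 bases, unlike in the early-ending isoforms whose ends are shown above.

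**Figure D4:**
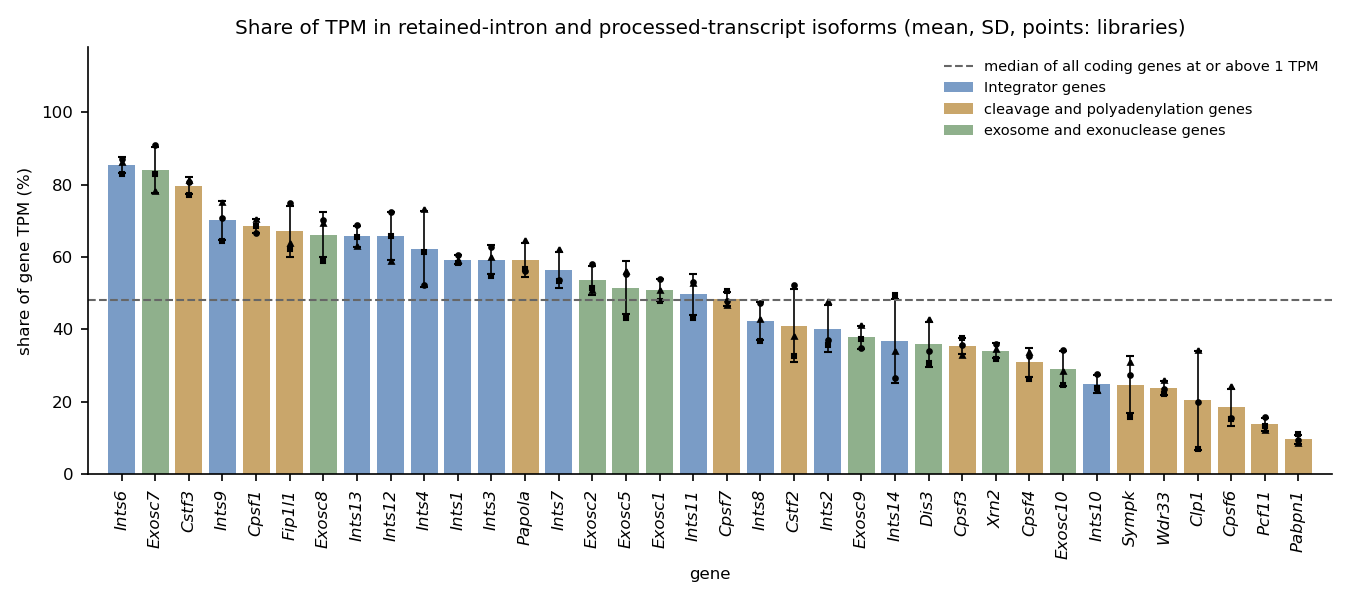
Share of each gene's TPM in retained-intron and processed-transcript isoforms (y axis, percent; bars are means of 3 libraries, whiskers are SD, points are libraries) for the 36 genes on the x axis, coloured by family. Shares run from 9.68% in Pabpn1 to 85.4% in Ints6, around a median of 48.1% for protein-coding genes, drawn as a dashed line.

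Over all transcripts of the 45 genes, 50.7 ± 1.90% of TPM was in protein-coding isoforms, 37.5 ± 1.95% in retained introns, 6.45 ± 0.154% in processed transcripts and 5.33 ± 0.465% in isoforms typed for nonsense-mediated decay (SD, n = 3 each). For all protein-coding genes these shares were 49.0 ± 1.24%, 38.0 ± 1.41%, 9.11 ± 0.198% and 3.81 ± 0.276% (SD, n = 3 each). The processed-transcript share was lower and the decay share higher than those of all protein-coding genes by more than either SD. In the second tables retained introns held 37.5 ± 1.65% for the 45 genes and 33.6 ± 0.82% for all protein-coding genes (SD, n = 3 each), also apart by more than either SD. These SDs give the spread between libraries and not the spread between genes, so whether the 45 genes differ from other genes was not tested. Integrator transcripts had 46.5 ± 3.86% in retained introns and 36.4 ± 3.66% in coding isoforms, and cleavage and polyadenylation transcripts had 33.2 ± 1.10% and 56.7 ± 1.22% (SD, n = 3 each).

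For 6 pairs of related genes, levels were compared within each library as the log2 difference of TPM + 0.1, with an exact two-sided sign-flip permutation test that cannot go below p = 0.25 with 3 libraries. After adjustment over the 6 pairs, every p was 0.3 except that of Cstf2 and Cstf2t at 0.75, so none could pass a threshold of 0.05 and only direction and size are described. Ints11 minus Cpsf3, the endonucleases of the complexes, was -1.46, -1.92 and -1.37 in replicates 1, 2 and 3 (mean -1.58 ± 0.29, SD, n = 3). Dis3 minus Exosc10, the catalytic subunits of the nuclear exosome, was -1.36, -1.54 and -1.09 (mean -1.33 ± 0.22, SD, n = 3). Cpsf4 minus Cpsf4l was 2.48, 4.10 and 3.73 (mean 3.44 ± 0.85, SD, n = 3). For these 3 pairs every library gave the same direction in the gene tables, in the second tables and over coding isoforms alone. The size was less stable: Cpsf4 minus Cpsf4l was 1.55 ± 0.26 in the second tables, and Dis3 minus Exosc10 was -2.55 ± 0.93 over coding isoforms (SD, n = 3 each).

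The other 3 pairs changed direction with the isoforms counted, an alternative chosen after seeing the data. Ints9 minus Cpsf2, the partners of the endonucleases, was 0.77, 0.83 and 1.08 in replicates 1, 2 and 3 over all isoforms (mean 0.89 ± 0.16) and -0.93, -0.61 and -0.88 over coding isoforms (mean -0.81 ± 0.17, SD, n = 3 each). Ints9 had 70.2% of its TPM in retained introns, in Ints9-202 and Ints9-203, while Cpsf2 has 1 isoform. Cpsf6 minus Cpsf7 was -0.02, -0.34 and -0.01 over all isoforms and 0.39, 0.26 and 0.51 over coding isoforms, from 21.4 ± 8.94 TPM for Cpsf6 and 16.0 ± 5.41 TPM for Cpsf7 (SD, n = 3 each). In the gene tables Cpsf6 and Cpsf7 differed by less than the spread between libraries, and in the second tables the difference was -0.58 ± 0.11 (SD, n = 3). Cstf2 minus Cstf2t was 0.29, 1.07 and -0.38 (mean 0.33 ± 0.73), also less than that spread, and -0.048 without replicate 2. Over coding isoforms it was -0.41 ± 0.83 (SD, n = 3 each).

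**Figure D5:**
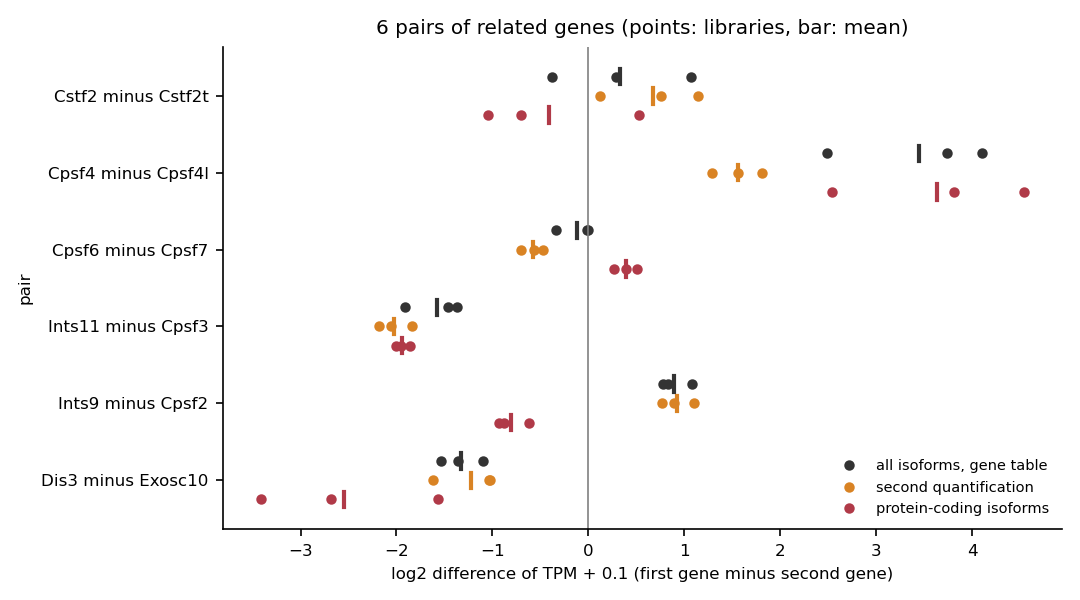
Log2 difference of TPM + 0.1 between the first and the second gene of 6 pairs (x axis), by pair (y axis), in the gene tables (black), the second quantification (orange) and over protein-coding isoforms alone (red); points are libraries and bars are means. Ints9 minus Cpsf2 lies above 0 over all isoforms and below 0 over coding isoforms, while Ints11 minus Cpsf3 and Dis3 minus Exosc10 lie below 0 throughout.

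The spread of these genes between libraries was described on scaled counts. The biological coefficient of variation, edgeR's estimate of the spread between libraries beyond counting error, had a median of 0.179 over the 42 genes that passed the filter on low counts, beside 0.198 over 13985 genes tested. Cpsf4l, Exosc4 and Exosc6 did not pass. The highest coefficients were 0.269 for Ints12, 0.241 for Cstf2t and 0.239 for Ints1. In scaled CPM (counts over the library total, with TMM factors), Cstf2t had 10.9, 9.33 and 17.1 and Ints1 had 76.7, 117 and 63.6 in replicates 1, 2 and 3. Cstf2t was high in replicate 3 and Ints1 in replicate 2. The lowest were 0.164 for Ints9, 0.165 for Cpsf4 and 0.167 for Exosc7, and Cpsf4 had 14.4, 14.9 and 14.9 scaled CPM. Log2 levels of the 40 genes at or above 1 TPM correlated between libraries with Pearson's r of 0.977 to 0.988, across genes that are not independent replicates.

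The libraries differ in starting RNA, and each amount has 1 library, so amount and library cannot be told apart. None of the 42 genes was called for a change with amount in edgeR's quasi-likelihood test (adjusted p below 0.05 over all genes). The test called 1.14% of all genes tested, 1.03% higher and 0.114% lower with more RNA. At an unadjusted p under 0.05 the test gave 2 of the 42 genes, Ints12 and Cpsf1. Over all genes tested, 975 of 13985 had an unadjusted p under 0.05 in edgeR, so the genes of this machinery were not above that share. DESeq2 gave 0 of 41 after adjustment. Before adjustment it gave 1 gene of this machinery and 452 genes in all. Those 2 counts also cover genes without an adjusted p, so no DESeq2 share before adjustment is given. DESeq2 called 0.64% of all genes, 0.632% higher and 0.00771% lower with more RNA. The lowest adjusted p of any of the genes was 0.155 in edgeR, and 0.0509 to 0.997 under the other settings. Ints12 had 10.5, 18.1 and 23.8 scaled CPM at 250, 500 and 1000 ng. Its slope was 0.59 ± 0.18 (SE) log2 units per doubling, with an edgeR adjusted p of 0.155, and the share of Ints12-202, a retained-intron isoform, was 36.8%, 59.0% and 70.2% at those amounts. Cpsf1 had 146, 84.3 and 89.5 scaled CPM at the same amounts, with a slope of -0.35 ± 0.16 (SE) and an edgeR adjusted p of 0.634. Without replicate 2 that slope was 0.087, and without replicate 1 it was -0.79, while the Ints12 slope ranged from 0.39 to 0.78 without 1 library. With 1 residual degree of freedom per gene, the error borrows from the rest of the genes.

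Partners of these complexes that the symbol rule did not take were followed as a list of 42 genes, such as the exosome adaptors, the cap-binding proteins, the PP2A subunits and the histone pre-mRNA factors. All 42 were found, and 39 had 1 TPM or more in all 3 libraries. Their median level was 15.3 ± 4.25 TPM (SD, n = 3). The highest was Nabp1, a single-stranded DNA-binding protein that joins Ints3 in the SOSS complex, at 79.4, 110.3 and 236 TPM in replicates 1, 2 and 3. Srrt, which links the cap-binding complex to RNA decay, had 65.7, 100.6 and 123 TPM, and Zfc3h1, part of the adaptor that brings polyadenylated nuclear RNA to the exosome, had 51.7, 77.6 and 105 TPM. Each of the 3 was lowest in replicate 1 and highest in replicate 3. Zfp473, a histone pre-mRNA processing factor, was the lowest at 0.33, 0.20 and 0.52 TPM. Of the 42 genes, 0 were called for a change with starting amount in the edgeR test. In that test 1 had an unadjusted p under 0.05, beside the 975 of 13985 over all genes.

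The second quantification gave higher TPM for 40 of 44 genes, with a median ratio of 1.44 to the gene tables, beside 1.54 over 8938 protein-coding genes. The order of the genes was nearly the same in both (Spearman's rho 0.98 over 45 genes). The ratio was above 2 for Cpsf4l, Exosc4, Exosc3, Exosc2 and Ints10. There, all but Ints5 and Exosc6 had 1 TPM or more in all 3 libraries, which is 43 of the 45 genes.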

How the data were processed

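Chromatin-fraction RNA of 3 libraries was measured. The authors quantified each library on its own with annotation M21 on mm10 (the same assembly as GRCm38), per the file headers and a list deposited with them. They deposited expected counts and TPM per gene and per transcript, made from alignments, and estimated counts and TPM per transcript, made from reads with no alignment among the inputs. The interval bounds, treated here as a signal in TPM units, are also the authors' deposited values. For aligner, tool names, versions and strand use: not given in the sources used here. Because each file's TPM share a fixed sum, abundant small RNAs lower the other values.

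Symbols, transcript types and 1-based coordinates came from GENCODE M21, and transcript sequences from its transcript set. Entries that are no genes (96 spike-ins, phiX and 26248 numeric names), with 1.08%, 0.299% and 0.332% of expected counts in replicates 1, 2 and 3, were left out of the tests. Expected counts were rounded for edgeR 4.0.16 in R 4.3.3 (TMM, filterByExpr, quasi-likelihood slope on log2 starting RNA, Benjamini-Hochberg adjustment over all genes tested), with DESeq2 1.42.0 as an alternative. The edgeR steps were tested on simulated data, and DESeq2 was not. Levels are TPM, and differences use a pseudocount of 0.1. Python 3.11.15, pandas 2.3.3, numpy 2.4.6, scipy 1.17.1 and matplotlib 3.10.9 did the rest. No outlier test was run, since a group of 3 does not allow one.

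The members, lists and tests were chosen with earlier results of these data known. Values by library are given for the 3 highest genes and the lowest of each of 6 role groups, both genes of each pair, the 3 highest and 3 lowest by coefficient of variation and by noncoding share, any gene below 1 TPM in a library, any called in the slope test and any more than 4 times apart between quantifications. The alternatives were pseudocounts of 1 and of 0.01, TPM as posterior means, the second tables, TPM rescaled over coding genes, limits of 0.5 and 5 TPM, DESeq2 and its size factors, no filter, decay isoforms counted as noncoding, and each replicate left out. TPM of coding isoforms alone was added after seeing the data.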

Additional observations from a re-analysis of the deposited data

How the results depend on the processing

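On the log2(mean TPM + 0.1) scale, the family medians moved with the values used. Cleavage and polyadenylation had 4.29, against 5.16 in the second tables, 6.64 with TPM rescaled over coding genes and 3.18 over coding isoforms. Integrator had 3.41, against 4.01, 5.76 and 2.05, and exosome and exonucleases 2.33, against 3.16, 4.64 and 0.54, under the same settings. The order of the families held in each. Without 1 replicate the medians ranged from 4.12 to 4.43, 3.26 to 3.57 and 2.05 to 2.55 in the same order. With a limit of 5 TPM, 24 of the 45 genes passed in every library, against 40, and without 1 replicate 40 to 41 passed 1 TPM. The median coefficient of variation of 0.179 ranged from 0.171 to 0.208 without 1 replicate. The median noncoding share of 49.0% was 56.5% with decay isoforms counted and 48.6% to 49.8% without 1 replicate, and in the second tables it was 45.9%, beside 54.4% for all coding genes. Cstf2 minus Cstf2t was 0.33, ranged from -0.048 (without replicate 2) to 0.68 without 1 replicate, and was -0.41 over coding isoforms. Cpsf6 minus Cpsf7 was -0.12 over all isoforms and 0.39 over coding isoforms, and Ints9 minus Cpsf2 was 0.89 and -0.81. The cause was not tested. Calls with starting amount were 0 under every setting run, and without a replicate the slope has no residual degree of freedom, so it was not tested.

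No paired analysis was possible because the study has 1 group. Depth limits the genes with few counts, Cpsf4l, Exosc3 and Exosc4, most.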
